A study of Mus musculus with 4 samples.

Results

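The Hox and Meis positional genes described here are 10 genes of the mouse: Hoxa5, Hoxa7, Hoxa9 and Hoxa10 of the Hoxa cluster, Hoxc6, Hoxc8 and Hoxc9 of the Hoxc cluster, Hoxd8 of the Hoxd cluster, and the TALE homeobox genes Meis1 and Meis2. They were chosen by family and by name, with their signals on these same 4 arrays known, so their levels and differences are a description and no test is given on them. Every probe set that the platform annotation assigns to one of these symbols alone was read, which gave 13 probe sets of 22690, and 10 of 12394 named genes. Of the 10 genes, 9 had a signal above the floor on at least 1 array, as did 11 of the 13 probe sets, and Meis2 did not. Over all 12394 named genes, 7930 had such a signal.

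Expression was measured in myogenic cells purified with the antibody SM/C-2.6, which recognises quiescent muscle stem cells, out of the hind limbs of C57BL/6 mice (8 to 12 weeks old) whose muscle had received cardiotoxin. Cardiotoxin is a venom peptide used to make muscle fibres break down and regenerate. All mice were injured, cells were not cultured, and no uninjured sample stands among the arrays. The cells were collected on days 2, 3, 5 and 14 after injury, with 1 Affymetrix mouse 430A array for each day. No day has a replicate, the labels name no number of pooled animals, and no p-value is given. A difference is therefore called by its size alone, at a ratio of at least 2-fold between 2 arrays.

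Signals are MAS5 signals in arbitrary units after scaling each array to a common trimmed mean. The floor was 43.0, the pooled median, and lower signals were raised to it. A gene with neither array above the floor was not measured in that comparison. Where a gene was above the floor on 1 of the 2 arrays, the ratio is a lower bound. Values under the floor are printed to show the data and have no order among themselves. The share of all probe sets above the floor was 45.0%, 49.5%, 52.0% and 53.5% on days 2, 3, 5 and 14, so more weak signals cleared the floor on later arrays. Between probe sets of 1 gene, the SD of a single log2 ratio was 0.36, 0.37 and 0.32 for the successive steps (days 3 over 2, 5 over 3 and 14 over 5) and 0.55 for day 14 over day 2. This is the only measure of error available, and it leaves out the spread between animals.

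Hox genes encode homeodomain transcription factors that lie in clusters and are expressed in overlapping stretches along the body axis and the limb, in the order in which they lie on the chromosome. Meis proteins, together with the related Pbx and Pknox proteins, belong to the TALE class of homeodomain proteins and bind DNA next to Hox proteins as cofactors. Adult cells of the limb, muscle stem cells and connective tissue cells among them, retain part of the Hox code of their place of origin, and Polycomb and Trithorax complexes are known for keeping Hox clusters silent or active. In muscle stem cells of mice, Hoxa9 is known as a regulator that is induced on activation in aged animals.

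Genes of the Hoxa cluster read highest on different days, and the upstream sequences of Hoxa9, highest on day 2, and Hoxa5, highest on day 14, are shown for that contrast. Each is the 250 bases before the RefSeq start of the gene, on the minus strand of chromosome 6 in build GRCm38.p6, with every CpG dinucleotide in capitals. The stretch upstream of Hoxa9 lies at chr6:52227371-52227620 and that of Hoxa5 at chr6:52204588-52204837.
Hoxa9: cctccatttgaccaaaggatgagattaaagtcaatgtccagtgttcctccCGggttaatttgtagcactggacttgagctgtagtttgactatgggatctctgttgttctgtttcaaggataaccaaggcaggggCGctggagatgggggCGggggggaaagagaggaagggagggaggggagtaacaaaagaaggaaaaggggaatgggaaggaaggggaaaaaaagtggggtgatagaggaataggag
Hoxa5: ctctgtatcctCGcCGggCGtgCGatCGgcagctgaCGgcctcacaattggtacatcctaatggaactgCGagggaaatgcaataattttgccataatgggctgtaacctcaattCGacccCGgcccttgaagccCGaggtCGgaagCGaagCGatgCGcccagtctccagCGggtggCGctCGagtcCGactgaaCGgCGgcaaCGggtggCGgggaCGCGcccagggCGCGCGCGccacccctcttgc
The stretch upstream of Hoxa9 held 3 CpG dinucleotides and 49.6% G and C, and that of Hoxa5 held 28 and 63.6%. The medians over 32851 RefSeq starts were 6 and 52.4%. Hoxa9 and Hoxa5 had the lowest and the highest CpG count among the members' 8 starts. Hoxa7, also highest on day 2, held 7. Of the others highest on day 14, Hoxa10 held 7 and 20 at its separate starts and Hoxd8 held 6. The counts thus did not sort by day of highest signal. The RefSeq table matched 7 of the 10 genes with 8 starts in all. Hoxc6, Hoxc8 and Hoxc9 were not matched. The core TGACAG, which Meis proteins are known to bind, stood on neither strand of any of the 8 stretches, and 15.9% of all stretches of that length held it. The composite TGATTNAT of Hox and Pbx proteins was also found in none of the 8, against 2.82% of all, and a search for letters does not show whether a factor binds.

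**Figure D1:**
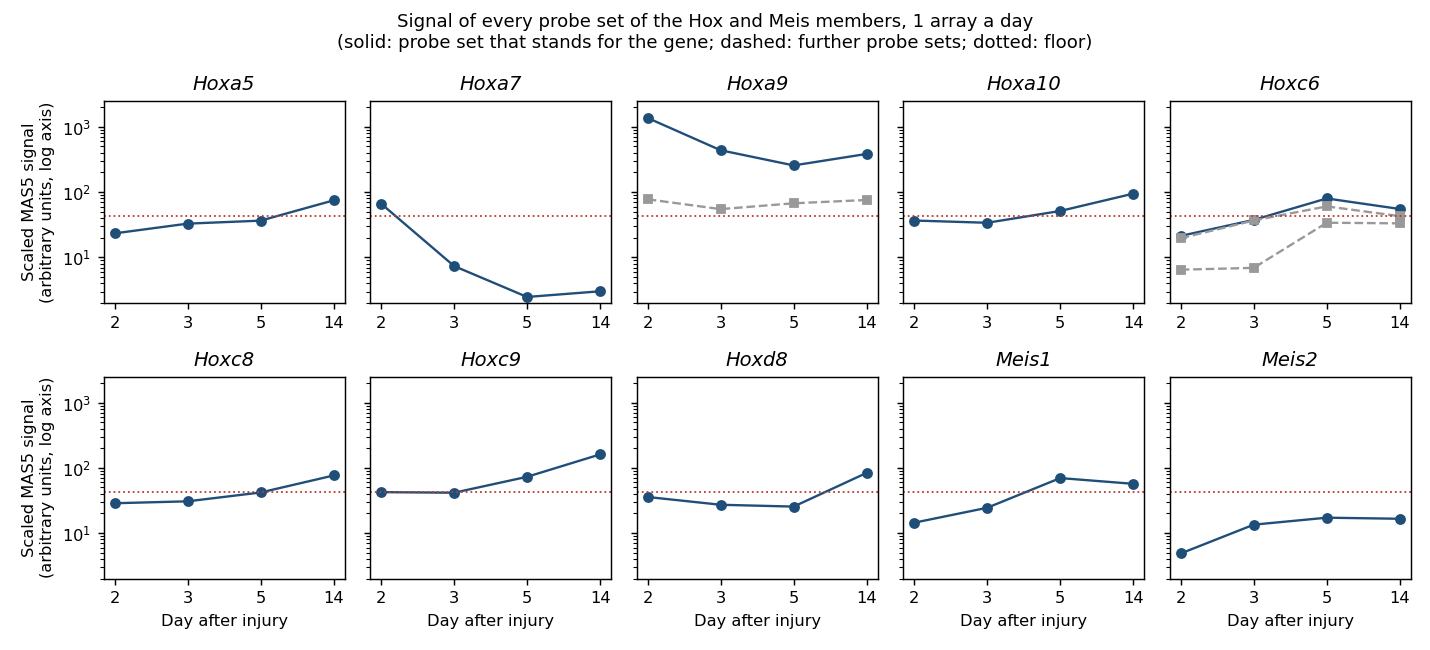
Scaled MAS5 signal (arbitrary units, log axis) of all 13 probe sets of the 10 genes on the arrays of days 2, 3, 5 and 14, evenly spaced, with 1 point per array and no error bars. Solid lines are the probe set that stands for the gene, dashed lines the further probe sets and the dotted line the floor of 43.0. Only Hoxa9 was well above the floor on all 4 days, with 1364 on day 2.

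Hoxa9 was above the floor on every array and stood highest on day 2. Its representative probe set read 1364, 437, 256 and 384 on days 2, 3, 5 and 14. Day 2 stood apart from the other days, with day 3 at 3.12-fold, day 14 at 3.55-fold and day 5 at 5.33-fold lower. Among the later arrays the order was day 3, day 14 and day 5. Day 3 and day 14 were 1.14-fold apart, a log2 ratio of -0.19, which is less than the probe set SD of 0.47 for that pair. Day 14 was higher than day 5 by a log2 ratio of 0.59, short of a call, and day 5 was 1.71-fold lower than day 3.

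A second Hoxa9 probe set did not show this pattern. It read 77.5, 54.8, 67.3 and 75.7 on the 4 days, above the floor throughout and within 1.41-fold between any pair of days. The probe sets thus differed by 1.79 in their log2 ratios for day 14 against day 2, at -1.83 and -0.04. Of 1969 genes with several probe sets that cleared the floor on each of these arrays, 110 (5.59%) had a range that large, against a median range of 0.55. For day 3 against day 2 the range was 1.14, and 98 of 2069 genes (4.74%) reached it. Which part of the transcript each probe set reads was not analysed here.

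Hoxa7, which lies next to Hoxa9 in the cluster, was the other gene with its highest signal on day 2. It read 66.5 on day 2, and 7.37, 2.48 and 3.03 on days 3, 5 and 14. It was thus measured on day 2 alone and lay under the floor on the 3 later arrays. The ratio was at least 1.55-fold lower on each later day, short of a call. With a floor of 0.5 times the main one the bound for day 14 against day 2 was a log2 ratio of -1.63, which is a call.

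Hoxa10, the neighbour of Hoxa9 on its other side, lay on the opposite side over the whole course. Its signals were 36.7, 33.9, 51.4 and 94.6, with days 5 and 14 above the floor. Day 14 was at least 2.20-fold higher than day 2 and 1.84-fold higher than day 5. The call on day 14 against day 2 was lost on scaling to a common median (log2 ratio 0.53), with quantile normalization (0.66) and with a floor at 2 times the main one (0.14).

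Hoxa5, on the far side of Hoxa7, was above the floor on day 14 only. It read 23.3, 32.9, 36.5 and 74.7, so day 14 was at least 1.74-fold higher than each earlier day, short of a call. Hoxd8 had the same form, with 35.8, 27.2, 25.5 and 83.8 and a ratio of at least 1.95-fold for day 14 against each earlier day. With a floor at 0.5 times the main one its bound for day 14 against day 5 was a log2 ratio of 1.72, which is a call. The bound was 0.67 with scaling to a common median and 0.73 with quantile normalization, each short of a call. Both genes encode Hox factors of the middle part of their clusters, and both lay above the floor on 1 array of 4.

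The Hoxc genes also read higher on the later arrays, although not all on the same day. Hoxc9, a paralogue of Hoxa9, read 42.5, 41.6, 72.9 and 161, so days 2 and 3 lay under the floor and day 14 was the highest. It was at least 3.74-fold higher on day 14 than on day 2 and 2.20-fold higher on day 14 than on day 5, and day 5 was at least 1.70-fold higher than day 3. Its ratio of day 14 against day 5 fell short of 2-fold with a floor at 2 times the main one (log2 ratio 0.90) and with log2(signal + 16) (0.99), and that of day 14 against day 2 did so with the higher floor (0.90). Hoxc8, next to it in the cluster, read 28.7, 30.7, 41.9 and 76.4, with day 14 alone above the floor, at least 1.78-fold higher than each earlier day.

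Hoxc6 read highest on day 5. The probe set that stands for it gave 21.3, 37.5, 79.9 and 55.1, and its name ends in x, which marks a probe set whose probes can also match other sequences. A second probe set gave 19.6, 36.7, 60.5 and 42.8, and the last stayed under the floor at 6.48, 6.91, 33.9 and 33.2. Both probe sets that cleared the floor were highest on day 5, and the second lay under it again on day 14. Day 5 was at least 1.86-fold higher than day 3 for the main probe set and at least 1.41-fold higher for the second. Day 14 was 1.45-fold lower than day 5.

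Meis1, the cofactor, also read highest on day 5. Its signals were 14.5, 24.5, 69.7 and 56.9, with days 5 and 14 above the floor and days 2 and 3 under it. Day 5 was at least 1.62-fold higher than day 3, and day 14 was 1.22-fold lower than day 5, less than the probe set SD for that pair. Under a floor at 0.5 times the main one the bound for day 5 against day 3 was a log2 ratio of 1.51, and 1.08 with log2(signal + 16). It was 0.51 with scaling to a common median and 0.53 with quantile normalization, each short of a call. Meis2 read 4.88, 13.5, 17.2 and 16.6, under the floor on every array, and no direction can be given for it.

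**Figure D2:**
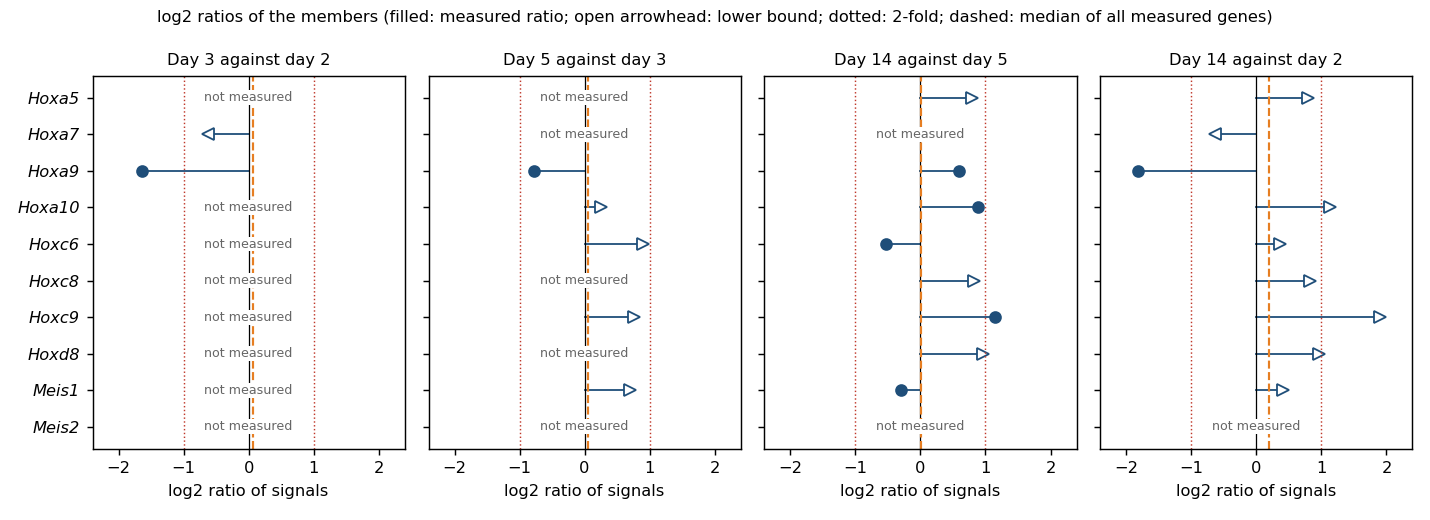
log2 ratios of the 10 genes (later day over earlier day) for 4 comparisons. Filled points are ratios with both arrays above the floor, open arrowheads are lower bounds with 1 array at the floor, dotted lines mark 2-fold and the dashed line the median over all measured genes. Hoxa9 lies past 2-fold lower on days 3 and 14 against day 2, while Hoxa10 and Hoxc9 lie past 2-fold higher on day 14 against day 2.

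At the first step, day 3 over day 2, only Hoxa9 and Hoxa7 were measured, with log2 ratios of -1.64 and -0.63, and the other 8 genes lay at the floor on both arrays. Hoxa9 was called lower and none was called higher. Over all 6991 measured genes 6.69% were called higher and 1.80% lower, and since these signals chose the members nothing is read from the count. The Hoxa9 call held under all 9 alternatives, with log2 ratios from -2.14 to -1.07, the last from the median over its probe sets. No alternative used the second probe set alone, which read 77.5 on day 2 and 54.8 on day 3, short of a call.

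At the step from day 3 to day 5, none of the 5 measured genes was called. Hoxc6, Hoxc9, Meis1 and Hoxa10 had log2 ratios of at least 0.90, 0.76, 0.70 and 0.26, and Hoxa9 had -0.77. The median was 0.70, against 0.06 over all 7523 measured genes, of which 11.6% were called higher and 5.97% lower. The 4 ratios above 0 were all bounds of genes under the floor on day 3, so the floor fixed their sign, and nothing is read from the median.

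At the last step, day 14 against day 5, 8 genes were measured and Hoxc9 was called higher. The 6 genes with a ratio above 0 were Hoxc9 (log2 ratio 1.14), Hoxd8 (at least 0.96), Hoxa10 (0.88), Hoxc8 (at least 0.83), Hoxa5 (at least 0.80) and Hoxa9 (0.59). Hoxc6 at -0.54 and Meis1 at -0.29 lay below 0. The median was 0.81, against 0.01 over all 7709 measured genes, of which 4.81% were called higher and 3.10% lower. The floor on day 5 fixed the sign of the 3 bounds.

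Over the whole course, day 14 against day 2, 9 genes were measured: Hoxc9 and Hoxa10 were called higher, Hoxa9 lower, and 6 were not past 2-fold. The 7 genes with a ratio above 0 were under the floor on day 2 and counted as measured because they cleared it on day 14, so the floor fixed their sign. The median was 0.80, from which nothing is read, and that over all 7668 measured genes 0.20, of which 22.8% were called higher and 14.8% lower. Among the 3087 measured genes whose higher signal of the pair was under 200, 21.8% were called higher and 4.92% lower, and each measured member except Hoxa9 was of this kind. Taking the median over its probe sets put Hoxa9 at -0.93, short of a call. With a floor of 0.5 times the main one all 9 genes were called, 7 higher and 2 lower. Of all 9074 genes measured with that floor, 2329 were called higher and 1206 lower. Since these signals chose the members, nothing is read from the count.

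Across the measured members the highest signal was on day 14 for 5 genes, on day 2 for 2 and on day 5 for 2. No member was highest on day 3. Over the 7930 genes above the floor on some array, day 14 was the highest for 35.9%, day 2 for 26.9%, day 5 for 20.5% and day 3 for 16.7%. Hoxa5, Hoxa7, Hoxc8 and Hoxd8 counted as measured through 1 array only, which fixed their day. As the members were chosen with these signals known, nothing is read from their counts. The median centred profile of the 9 genes was -0.24, -0.24, -0.16 and 0.60 on the log2 scale on days 2, 3, 5 and 14, in which days at the floor enter at the floor.

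Of 5911 genes above the floor on every array, those nearest to that profile by root mean square log2 difference over the 4 arrays were Zcchc7 (0.045), Peli1 (0.045), E2f5 (0.047), Mzt2 (0.058), Tlcd1 (0.059) and Siah2 (0.059). Zcchc7 read 186, 202, 210 and 351, and E2f5, a transcription factor of the E2F family, read 68.1, 62.8, 67.9 and 113. Peli1 and Siah2, which encode ubiquitin ligases, read 94.1, 89.5, 95.8 and 154, and 213, 232, 250 and 415. Mzt2 read 248, 229, 265 and 451, and Tlcd1 read 68.3, 61.5, 71.0 and 115. Each of the 6 was highest on day 14, which the search fixed, since the profile they were matched to is highest there. The likeness rests on 4 arrays and on a profile in which most members' early days were set to the floor.

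**Figure D3:**
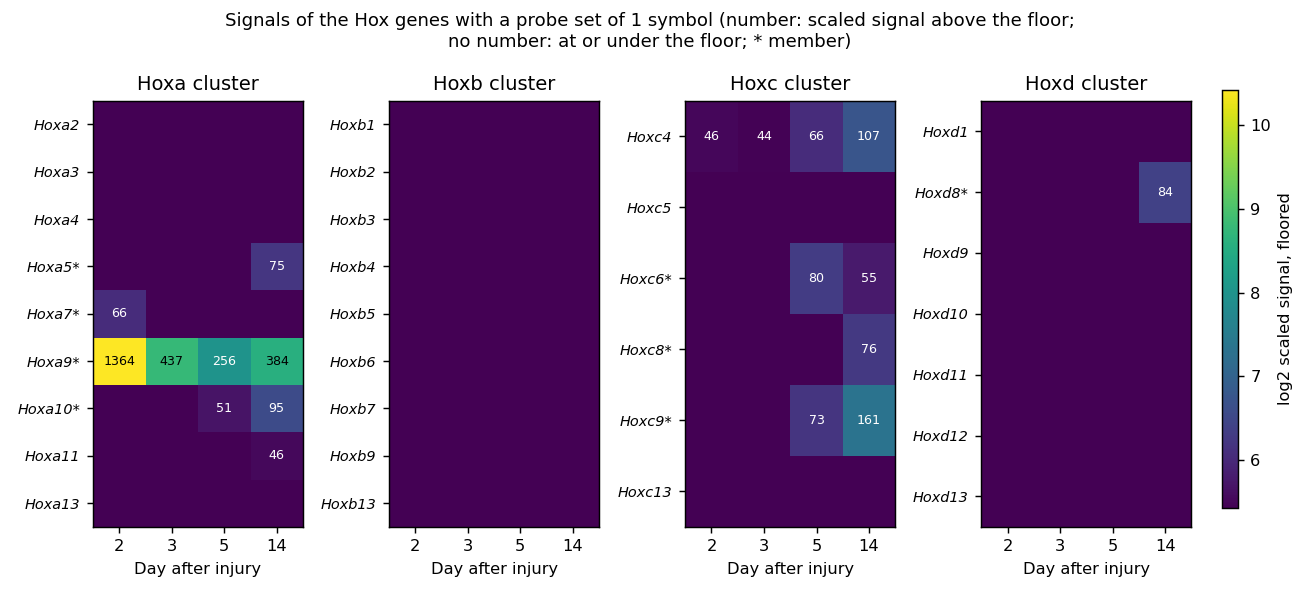
Signals of the 31 Hox genes with a probe set of their own symbol, by cluster and by day after injury (1 array each). Colour is the log2 scaled signal set to the floor where lower, numbers are scaled signals above the floor, and asterisks mark members. Hoxa9 holds the highest values, with 1364 on day 2, and no Hoxb gene has a value above the floor.

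The rest of the Hox family was mostly under the floor. Of 39 Hox genes, 31 had a probe set of their own symbol, and 23 of these were not members. Of the 23, Hoxc4 and Hoxa11 were above the floor on some array, and the other 21 read 29.9 at most. Over all 12394 named genes, 7930 were above it on some array. The choice of members was made with their signals known, so nothing is read from their contrast with the other Hox genes. All 9 Hoxb genes on the array stayed under the floor, as did Hoxd1, Hoxd9, Hoxd10, Hoxd11, Hoxd12 and Hoxd13. Signals came from 5 of 9 Hoxa genes, 4 of 6 Hoxc genes and 1 of 7 Hoxd genes. The other 8, among them Hoxc10, Hoxc11 and Hoxc12, had no probe set of their own symbol and were not analysed here.

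Hoxc4, at the end of the Hoxc cluster beyond Hoxc5, was above the floor on all 4 arrays. It read 45.8, 44.0, 66.4 and 107, and day 14 was 2.33-fold higher than day 2, a call that was lost with median scaling (log2 ratio 0.38) and quantile normalization (0.59). Day 5 was 1.51-fold higher than day 3 and day 14 was 1.61-fold higher than day 5, each short of a call. Hoxa11, beyond Hoxa10, read 42.6, 33.3, 28.8 and 46.4, at the floor except on day 14. Hoxc4 and Hoxc9 thus both read highest on day 14, while Hoxc5, which lies between Hoxc4 and Hoxc6, stayed under the floor at 1.59, 4.53, 9.36 and 5.18.

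Among the TALE partners of the members, 10 genes were read on the array, Meis1 and Meis2 included. None was called on day 3 against day 2 or on day 5 against day 3. Over all measured genes 6.69% and 11.6% were called higher there, and 1.80% and 5.97% lower. Pknox1, a relative of Meis, read 32.9, 42.9, 46.2 and 134, so day 14 was 2.91-fold higher than day 5, while its second probe set was above the floor on day 14 only, at 45.4. Pbx3, a Hox cofactor, read 72.3, 76.8, 107 and 46.0, and day 14 was 2.32-fold lower than day 5. Tgif1, a repressor of the class, read 150, 229, 398 and 432, with day 14 at 2.87-fold higher than day 2. Tgif2 read 178, 221, 276 and 299, and its day 14 was 1.67-fold higher than day 2.

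The remaining TALE genes were weak. Pbx2 read 41.7, 52.7, 71.8 and 59.1, and Meis3 read 27.5, 21.4, 40.6 and 45.8, above the floor on day 14 only. Pknox2 and Pbx4 stayed under the floor. For day 14 against day 2 the 7 measured TALE genes had a median log2 ratio of 0.46, with Pknox1 and Tgif1 called higher and none lower (22.8% and 14.8% over all measured genes), and Pbx3 at -0.65 was the only one below 0. With median scaling 1 was called higher and 1 lower there, and the Tgif1 call was lost at a log2 ratio of 0.68.

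Other positional transcription factors of limb and muscle were read from a list of 34 genes, of which 30 were on the array and 6 to 8 above the floor on each day. On day 3 against day 2, 3 of 6 measured were called higher and none lower: Tbx15 (153 on day 3 and 44.4 on day 2), a T-box factor, Prrx2 (177 and 66.2) and Lbx1 (224 and 96.5), which acts in migrating limb muscle precursors. Over all measured genes 6.69% were called higher in that comparison and 22.8% on day 14 against day 2. On day 14 against day 2, 4 of 8 were called higher and none lower. They were Tbx15 (2.73-fold), Pitx3 (2.66-fold), Lbx1 (2.41-fold, with a second probe set at a log2 ratio of 0.24) and Prrx1 (2.14-fold). The lowest of 3 measured Prrx1 probe sets stood at a log2 ratio of 0.20. No member of the list was called on day 5 against day 3 or on day 14 against day 5, although 1 was called lower in the last comparison under each of the 3 other scalings. With median scaling 1 of 7 was called on day 3 against day 2 and none on day 14 against day 2, and with quantile normalization 2 in each. Tbx4 and Pitx1, hind-limb factors of the embryo, and Tbx5, that of the forelimb, stayed under the floor on every array.

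Regulators of Hox chromatin did not move as a block. Of 22 Polycomb genes on the array, 18 were measured on day 3 against day 2 and none was called in either direction. On day 5 against day 3, Ezh1 (2.95-fold) and Cbx6 (2.36-fold) were higher and none of 19 was lower. On day 14 against day 5, Jarid2 alone of 20 was called, 2.61-fold higher, at 718 on day 14 and 275 on day 5. Over all measured genes, 6.69%, 11.6% and 4.81% were called higher at these steps, and 1.80%, 5.97% and 3.10% lower.

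Over the whole course 4 of 20 Polycomb genes were called higher and 2 lower, where all measured genes had 22.8% and 14.8%, at a median of -0.10 on the log2 scale. Ezh1, a methyltransferase for histone H3, read 265 on day 14 against less than the floor on day 2, at least 6.17-fold higher. Jarid2 was 4.63-fold, Cbx6 3.99-fold and Ring1 3.48-fold higher. The lower calls were Ezh2, the paralogue of Ezh1, with 343 on day 14 and 915 on day 2, and Eed, their shared partner, with 422 and 1178. Ezh2 and Eed are named here because they complete the count and were chosen after their values were seen. Ezh1 and Ezh2 thus lay on opposite sides over the whole course, under each scaling tried. With median scaling 3 Polycomb genes were called higher and 10 lower, as the median of all genes moved to -0.57 there.

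Of 8 measured Trithorax and H3K27 demethylase genes, Kat6a was 2.24-fold higher on day 3 than on day 2. Kdm6a, a demethylase, was 2.05-fold higher on day 14 than on day 5, with a second probe set at a log2 ratio of 0.79. Both calls were lost with values as deposited (log2 ratios 0.98 and 0.94) and with median scaling (0.66 and 0.93). None was called on day 5 against day 3. Of all measured genes, 6.69%, 11.6% and 4.81% were called higher at the successive steps, and 1.80%, 5.97% and 3.10% lower. On day 14 against day 2, 3 were higher and 2 lower, with a median of -0.43, where all measured genes had 22.8% and 14.8%. Kmt2a, the methyltransferase known for keeping Hox genes active, was 3.45-fold, Kdm6a 2.52-fold and Kat6a 2.12-fold higher. A second Kmt2a probe set stood at a log2 ratio of 0.90, short of a call. Dpy30 was 3.86-fold and Ash2l 2.14-fold lower. Dpy30 and Ash2l encode shared subunits of the methyltransferase complexes. With median scaling none was called higher and 5 were lower, and with quantile normalization 1 was higher and 2 were lower.

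Retinoic acid, a known inducer of Hox genes, was covered by a list of 17 genes of its pathway, 15 of them on the array. On day 14 against day 2, higher calls fell on 5 of 7 measured genes and lower calls on none, at a median of 1.25 on the log2 scale, where 22.8% of all measured genes were called higher and 14.8% lower. Aldh1a1, an enzyme that makes retinoic acid, read 13.3, 28.9, 167 and 1146, at least 26.7-fold higher on day 14 than on day 2 and 6.88-fold higher than on day 5. The receptor Rarg read 59.8, 122, 224 and 300, 5.01-fold higher on day 14 than on day 2. Dhrs3, a reductase of the pathway, was above the floor on day 14 only, at 195. Rxra was 2.38-fold and Rxrb 2.01-fold higher on day 14 than on day 2. A second Rxra probe set stood at a log2 ratio of 0.40. Rdh10 read 378, 364, 269 and 199, the only gene of the 7 below 0 on day 14 against day 2, at a log2 ratio of -0.92. With median scaling 3 of the 7 were called higher and 1 lower, and the calls of Rxra and Rxrb were lost. Both calls were also lost with quantile normalization (log2 ratios 0.79 and 0.91).

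At the single steps 1 or 2 retinoic acid genes were called. The shares of all measured genes called higher at the successive steps were 6.69%, 11.6% and 4.81%, and those called lower 1.80%, 5.97% and 3.10%. Rarg was 2.04-fold higher on day 3 than on day 2, the only call among 4 measured genes, and one lost under each other scaling. Aldh1a1 was at least 3.88-fold higher on day 5 than on day 3, the only call among 6, against 3 called higher with values as deposited. On day 14 against day 5, Aldh1a1 and Dhrs3 were the calls among 8, both higher, under each scaling tried.

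The labelled cell type was checked against markers of myogenic cells, all 11 of which were on the array. The number above the floor was 8, 9, 11 and 11 on days 2, 3, 5 and 14. Myod1, a regulator of myoblasts, read 2272, 1405, 500.2 and 935, and Myog, which acts at differentiation, read 261, 3876, 1839 and 1835. Pax7, the factor of muscle stem cells, read 35.7, 59.4, 217 and 323, under the floor on day 2. Cdh15 read 350.0, 1606, 1884 and 1653 and Des 888, 1619.5, 1787 and 1232.

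Markers of other cell types differed between the arrays along with the members. The summed signal of 14 fibroblast and fibro-adipogenic markers was 210.4, 600.3, 4325 and 7920 on days 2, 3, 5 and 14, with 1, 5, 7 and 8 above the floor. Dpt, which encodes a matrix protein, made up 5877 of the sum on day 14 and 1430.3 on day 5, and without it the sum was 178, 529.6, 2895 and 2042, highest on day 5. The sum of 12 endothelial markers was 185, 275, 458 and 1045, with 0, 2, 4 and 7 above the floor. That of 11 mural and smooth muscle markers was 914, 4247, 11291 and 11335, with 2, 6, 8 and 9. Without Acta2, its brightest gene, the mural sum was 164, 651, 3547 and 5159. The sum of 14 macrophage and myeloid markers was 374, 1396, 4114 and 3522, with 4, 9, 13 and 12 above the floor. Without Lyz1 it was 286, 885, 2134 and 2084. All of these lists were lowest on day 2, when Hoxa9 and Hoxa7 were highest, and highest on day 5 or 14, when the other measured members were highest. The myogenic list was also lowest on day 2 and highest on day 14, with sums of 7192, 12582, 12302 and 17436. Its ratio of day 14 over day 2 was smaller than that of the fibroblast, endothelial, mural and myeloid lists. Within the myogenic list Myod1 was highest on day 2.

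**Figure D4:**
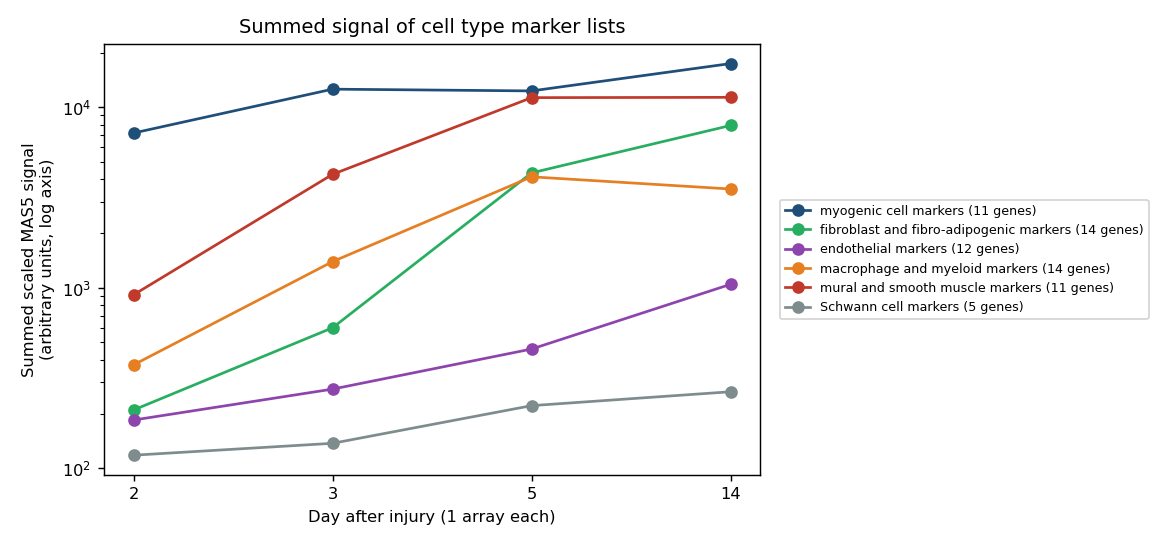
Summed scaled MAS5 signal (arbitrary units, log axis) of the genes of 6 cell type marker lists on the arrays of days 2, 3, 5 and 14, evenly spaced, with 1 point per array. Dpt makes up 5877 of the fibroblast sum on day 14. The fibroblast list read 7920 on day 14 and 210.4 on day 2, and the myogenic list 17436 on day 14 and 7192 on day 2.

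Single markers of these lists ranged widely. Among fibroblast markers Fap, a surface protease, read 16.7, 68.6, 1249 and 874, Mfap4 read 1.40, 24.3, 809.6 and 529, and Thy1 read 69.3, 207, 485 and 206. Pdgfra, a receptor of fibro-adipogenic cells, read 11.1, 41.7, 105 and 104, at least 2.45-fold higher on day 5 than on day 3. All 4 of these were highest on day 5, Pdgfra by a small margin, and so was Cd248 at 88.9. Other fibroblast markers differed. Dpt, Penk (89.2) and Pi16 (63.1) were highest on day 14, and Dpep1 (55.6) on day 3. Clec3b, Dpp4, Twist2, Osr1 and Tcf21 stayed under the floor on every array.

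The other lists also held bright genes. Of mural markers, Acta2 read 749.96, 3596, 7744 and 6176 and Rgs5 31.5, 136, 568 and 1997, and of myeloid markers Lyz1 read 88.3, 510.3, 1979.95 and 1438, Ctss 46.8, 180.4, 482 and 529.5 and Csf1r, a receptor of macrophages, 20.2, 91.0, 316 and 269. Of endothelial markers, Tek, a receptor, read 15.3, 28.1, 85.5 and 214 and Eng 40.6, 73.0, 127 and 186. In contrast Pecam1 and Cdh5, which define endothelial cells, stayed under the floor on every array, with 38.4 and 38.6 on day 14. Ptprc, the leukocyte antigen CD45, read 59.7 on day 5 and 54.5 on day 14 and lay under the floor before. The summed signal of 5 Schwann cell markers was 118, 138, 222 and 265, and none of 8 lymphocyte markers was above the floor on any array. In cells measured in bulk, fewer cells of a type and less RNA per cell cannot be told apart, and the part of other cells in the members' signals was not tested.

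RNA length was read from control probe sets at both ends of a transcript. The 3' over 5' signal ratio of Gapdh was 2.17, 1.88, 2.87 and 2.84 on days 2, 3, 5 and 14, and that of Actb was 1.80, 2.20, 2.19 and 2.14. Gapdh read higher on days 5 and 14 than on days 2 and 3, and Actb lower on day 2 than on the others. The part of RNA length in the members' signals was not tested.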

How the data were processed

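RNA of sorted myogenic cells was measured on 4 Affymetrix mouse 430A arrays, 1 for each day. The authors deposited signal intensities made with MAS5, per the submitters' processing notes, whose settings are not named there. Per the labels, cells were purified with the antibody SM/C-2.6, RNA was extracted with an RNeasy kit and a small sample labelling assay was used. The deposited values reach 15686, their medians were 29.6, 36.8, 53.5 and 54.1 on days 2, 3, 5 and 14, and none is below 0.

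Arrays were brought to 1 trimmed mean, leaving out 2% of values at each end (factors 0.997, 1.13, 0.917 and 0.976), signals under the pooled median were set to it, log2 was taken and arrays were subtracted over all probe sets. Of 22690 probe sets 20393 had 1 gene symbol, 691 several and 1606 none in the platform annotation; only those with 1 symbol were used, which left out 3 whose symbols include a Hox gene beside others. The probe set brightest on average (log2) stood for its gene. Probe set coordinates were not used here, and gene order and upstream sequences come from RefSeq (GRCm38.p6).

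The members and lists were chosen with earlier results of these data known. Named were all members, other Hox and TALE genes above the floor, up to 4 called genes by size of each further list and comparison (of marker lists, only part of these and some defining markers), 5 myogenic markers, and the 6 nearest profiles. The further lists hold limb factors, Polycomb, Trithorax, retinoic acid and cell type marker genes. Pairs that share an array share its error. Alternatives changed scaling, floor, probe set and call, and for the further lists the scaling alone, which was added after seeing the data. A few genes outside the naming rule are named for a known role or to complete a count. Precision is limited by having 1 array a day. The procedure was tested on simulated data, with changes set only in genes whose mean signal was above 200. Every member but Hoxa9 read under 200, so that test does not cover signals such as theirs. Python 3.11.15, numpy 2.4.6 and pandas 2.3.3 were used.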

Additional observations from a re-analysis of the deposited data

How the results depend on the processing

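Each day has 1 array, so no array could be left out within a day. No paired analysis was possible because each group has 1 sample. The 9 alternatives changed the scaling, the floor, the probe set or the fold that counts as a call. Of 200 values of single members under an alternative, 153 kept their side of the threshold, 9 lost a call, 38 gained one and none reversed a call. Most of the 200 had no call to lose, and members that a setting left unmeasured are not among them. The Hoxa9 call held in 9 of 9 settings for day 3 against day 2 and in 8 for day 14 against day 2. The Hoxc9 call held in 8 for day 14 against day 2 and in 6 for day 14 against day 5. That of Hoxa10 for day 14 against day 2 held in 5. Of the 38 gains, 32 came with the lower floor, log2(signal + 16) or the 1.5-fold call. The members called on day 14 against day 2, 3 in all, were 9 with a floor at 0.5 times the main one and 1 with a floor at 2 times. They were 7 with log2(signal + 16) and 7 at 1.5-fold. Over all genes, 2329 of 9074 were called higher and 1206 lower with the lower floor. At 1.5-fold these were 2705 and 1862 of 7668. For day 14 against day 5, 1 in the main setting, they were 2 as deposited, 3 with the lower floor, 0 with the higher floor, 6 at 1.5-fold and 0 at 3-fold. For day 5 against day 3, 0 in the main setting, they were 1 as deposited, 1 with median scaling, 2 with the lower floor, 1 with log2(signal + 16) and 4 at 1.5-fold. For day 3 against day 2, 1 in the main setting, they were 2 with median scaling, with the lower floor, with log2(signal + 16) and at 1.5-fold. The members' median log2 ratio for day 14 against day 2, 0.80, was 1.37 with the lower floor and 0.14 with the higher one, over 3 measured genes. By construction the floor sets how many members are measured and how large a bound can be. Nothing is read from the counts of called members, whose signals were known when they were chosen. The median needs 3 measured members, so it was not run for day 3 against day 2, nor with the higher floor for day 5 against day 3. Scaling to a common median moved the median of all genes for day 14 against day 2 to -0.57, against 0.20, and the share of calls that were higher to 23.5%, against 60.7%. That share was 20.9%, against 78.8%, for day 3 against day 2, 41.0%, against 66.1%, for day 5 against day 3, and 48.3%, against 60.8%, for day 14 against day 5. With values as deposited it was 52.6%, 87.4% and 50.5% at the 3 steps. Under median scaling 1 member was higher and 2 lower on day 14 against day 2. The signal over the floor limits all members but Hoxa9.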
